A study of Mus musculus with 17 samples.

Results

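The genes described here are 9 markers and growth factor genes of macrophages, out of 35147 gene symbols listed over all tables of the study. They were taken by symbol: Adgre1, Itgam, Ptprc and Cd68, which encode proteins used to sort or recognise macrophages, and Csf1r, Csf1, Csf2ra, Csf2rb and Csf3r, which encode colony-stimulating factor (CSF) receptors and 1 ligand. All 9 were found under these symbols in the 3 macrophage tables, and 8 in the table of basal cells, which lists Adgre1 as Emr1, an older symbol of the same gene in RefSeq. RNA of mouse mammary gland cells was sequenced in 17 libraries of 12 groups, all from virgin mice.

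Macrophages gated on F4/80 and CD11b made up 8 libraries of the knockout experiments, in 4 groups of 2. In the Cxcr4 knockout (LysmCre+, Cxcr4fl/fl), LysM-Cre deletes the floxed Cxcr4 in myeloid cells, while the LysM-Cre control (LysmCre+) carries the Cre alone. In the Cxcl12 knockout (K8Cre+, Cxcl12fl/fl), Cxcl12 is removed by K8-Cre in luminal epithelial cells, which are not the cells sequenced, and the K8-Cre control (K8Cre+) again carries the Cre alone. LysM-Cre is inserted in Lyz2, the macrophage lysozyme gene, so the Cxcr4 knockout and its control both carry that insertion, and the labels do not give its copy number. Wild type macrophages of the same gate were split by surface CXCR4, the receptor of the chemokine CXCL12, into 2 CXCR4+ libraries and 1 CXCR4- library. Further wild type macrophages of that gate were cultured in RPMI with 2% serum, 1 library each with CXCL12 plus GSK690693, an inhibitor of the kinase AKT, with GSK690693 alone, with recombinant CXCL12 alone, and untreated. The labels give no dose or time for these treatments. P4 cells (Lin-, CD24+, CD29high), basal cells enriched for mammary stem cells, gave 1 library from a Cxcl12 knockout and 1 from a K8-Cre control.

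Macrophages depend on CSF1, which binds the receptor tyrosine kinase CSF1R and keeps most tissue macrophages alive. Interleukin 34 is a second, separate ligand of that receptor. GM-CSF, the product of Csf2, signals through a specific alpha chain (Csf2ra) and the common beta chain (Csf2rb), which the receptors of interleukins 3 and 5 share, while G-CSF acts through Csf3r, a receptor best known on neutrophils. In the mammary gland, mice without CSF1 lack most macrophages and have poorly branched ducts.

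The knockout libraries held 8.60 to 37.2 M (mega) reads, as read from the smallest steps of the values, those of the CXCR4 sort 23.2 to 28.8 M and those of cultured cells 14.3 to 29.04 M. For P4 cells the depth is not known. K8-Cre control 1 was the shallowest library and had 37.2% of listed genes at 0, against 8.31% in Cxcl12 knockout 2. Cxcr4 RNA, the check of the first knockout, had 232 and 140 CPM (read counts scaled to the depth of the library) in the Cxcr4 knockout, against 819 and 318 CPM in the LysM-Cre control, and Lyz2 had 67.4 and 51.7 CPM against 10226 and 2780 CPM. The CXCR4 gate used surface protein, and Cxcr4 RNA overlapped across it, at 632 and 875 CPM in CXCR4+ and 772 CPM in CXCR4- macrophages. Whether the libraries of a group stem from different mice is not in the labels, so p-values measure only the spread between these samples, which may be technical. The 4 tables were normalised separately, so levels are set side by side across them without a test. In such bulk libraries, fewer cells of a type and less RNA per cell cannot be told apart.

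The sort markers were abundant in every freshly sorted macrophage library, which the gate on F4/80 and CD11b fixes for Adgre1 and Itgam. Adgre1 encodes F4/80, an adhesion G protein-coupled receptor of mouse macrophages, and ranged from 350 to 702 CPM, with a median of 547 CPM, over the 8 knockout-experiment libraries. Itgam encodes CD11b, the alpha chain that pairs with the beta chain of Itgb2 into an integrin of myeloid cells, and ranged from 182 to 335 CPM (median 265 CPM). Ptprc encodes CD45, the receptor tyrosine phosphatase found on all leukocytes, and ranged from 1009 to 1785 CPM (median 1265 CPM). Cd68 encodes a lysosomal glycoprotein of macrophages and ranged from 122 to 362 CPM (median 201 CPM). All 9 genes are protein-coding. In the GENCODE annotation of build GRCm38, whose gene starts equalled those of the knockout table for 118 of the 118 genes compared, Adgre1 lies on chromosome 17 from 57358691 to 57483527 and Cd68 on chromosome 11 from 69664213 to 69666153. Itgam lies on chromosome 7 from 128062640 to 128118491 and Ptprc on chromosome 1 from 138062861 to 138175708.

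Cd68, Ptprc and Itgam gave a higher, a lower and an overlapping level in CXCR4+ relative to CXCR4- macrophages, with values given further on, so their promoters are shown as 1 example of each. Each stretch is the window from 250 bases before to 50 after the annotated start in RefSeq on GRCm38.p6, written along the gene's strand, for Cd68 (chr11:69666121-69666420, minus strand), Ptprc (chr1:138175256-138175555, minus strand) and Itgam (chr7:128062390-128062689, plus strand). Capitals mark GAGGAA or, on the other strand, TTCCTC, a core letter run of the myeloid transcription factor PU.1, the product of Spi1.
Cd68: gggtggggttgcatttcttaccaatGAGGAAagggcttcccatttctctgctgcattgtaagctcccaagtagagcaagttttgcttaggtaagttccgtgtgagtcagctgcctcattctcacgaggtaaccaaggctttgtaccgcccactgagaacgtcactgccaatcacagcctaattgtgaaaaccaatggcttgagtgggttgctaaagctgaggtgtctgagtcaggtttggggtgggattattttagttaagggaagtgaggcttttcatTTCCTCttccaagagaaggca
Ptprc: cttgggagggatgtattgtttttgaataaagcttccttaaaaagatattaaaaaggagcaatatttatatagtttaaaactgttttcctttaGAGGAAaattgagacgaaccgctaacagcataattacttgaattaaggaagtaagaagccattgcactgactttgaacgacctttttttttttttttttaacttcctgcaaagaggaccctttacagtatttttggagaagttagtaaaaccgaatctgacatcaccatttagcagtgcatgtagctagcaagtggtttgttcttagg
Itgam: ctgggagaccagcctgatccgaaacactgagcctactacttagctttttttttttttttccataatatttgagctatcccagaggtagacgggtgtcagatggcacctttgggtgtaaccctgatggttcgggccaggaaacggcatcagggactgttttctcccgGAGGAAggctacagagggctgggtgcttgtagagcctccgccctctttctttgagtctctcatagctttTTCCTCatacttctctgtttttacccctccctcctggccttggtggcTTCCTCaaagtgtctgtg
Promoter windows were searched for 6 of the 9 genes (Ptprc, Csf1, Csf3r, Itgam, Cd68 and Csf2ra), and not for Adgre1, Csf1r and Csf2rb. Of these 6 windows, 5 held the motif on either strand, Csf1 having no match. Among all 32851 promoter windows of that length, 28.3% held it. A match here describes letters only, and all 3 printed windows hold it.

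Csf1 lies on chromosome 3 from 107741048 to 107760469, Csf2ra on chromosome 19 from 61223957 to 61228429, Csf2rb on chromosome 15 from 78325752 to 78353847 and Csf3r on chromosome 4 from 126024550 to 126044440 (GRCm38). The CSF genes spanned a wider range than the sort markers in fresh macrophages. Csf1r ranged from 401 to 1241 CPM over the 8 knockout-experiment libraries (median 629 CPM), and Csf2rb from 513 to 1294 CPM (median 594 CPM). Csf2ra ranged from 101 to 284 CPM (median 143 CPM) and Csf3r from 12.5 to 111 CPM (median 77.2 CPM). Csf1, the ligand of CSF1R, had the lowest median of the 9, at 36.0 CPM with a range of 13.1 to 82.9 CPM. Per kilobase of the principal transcript, which makes levels of different genes comparable, the medians ran from Ptprc (269 CPM per kb) over Adgre1 (169), Cd68 (164), Csf1r (134), Csf2rb (121), Csf2ra (77.3), Itgam (56.9) and Csf3r (22.2) to Csf1 (8.61). Ptprc exceeded Adgre1 in 8 of 8 libraries and Itgam exceeded Csf3r in 8 of 8 with ranges that did not overlap, whereas Adgre1 exceeded Cd68 in 4 of 8 and Csf1r exceeded Csf2rb in 5 of 8, so these neighbours did not differ beyond their spread.

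**Figure D1:**
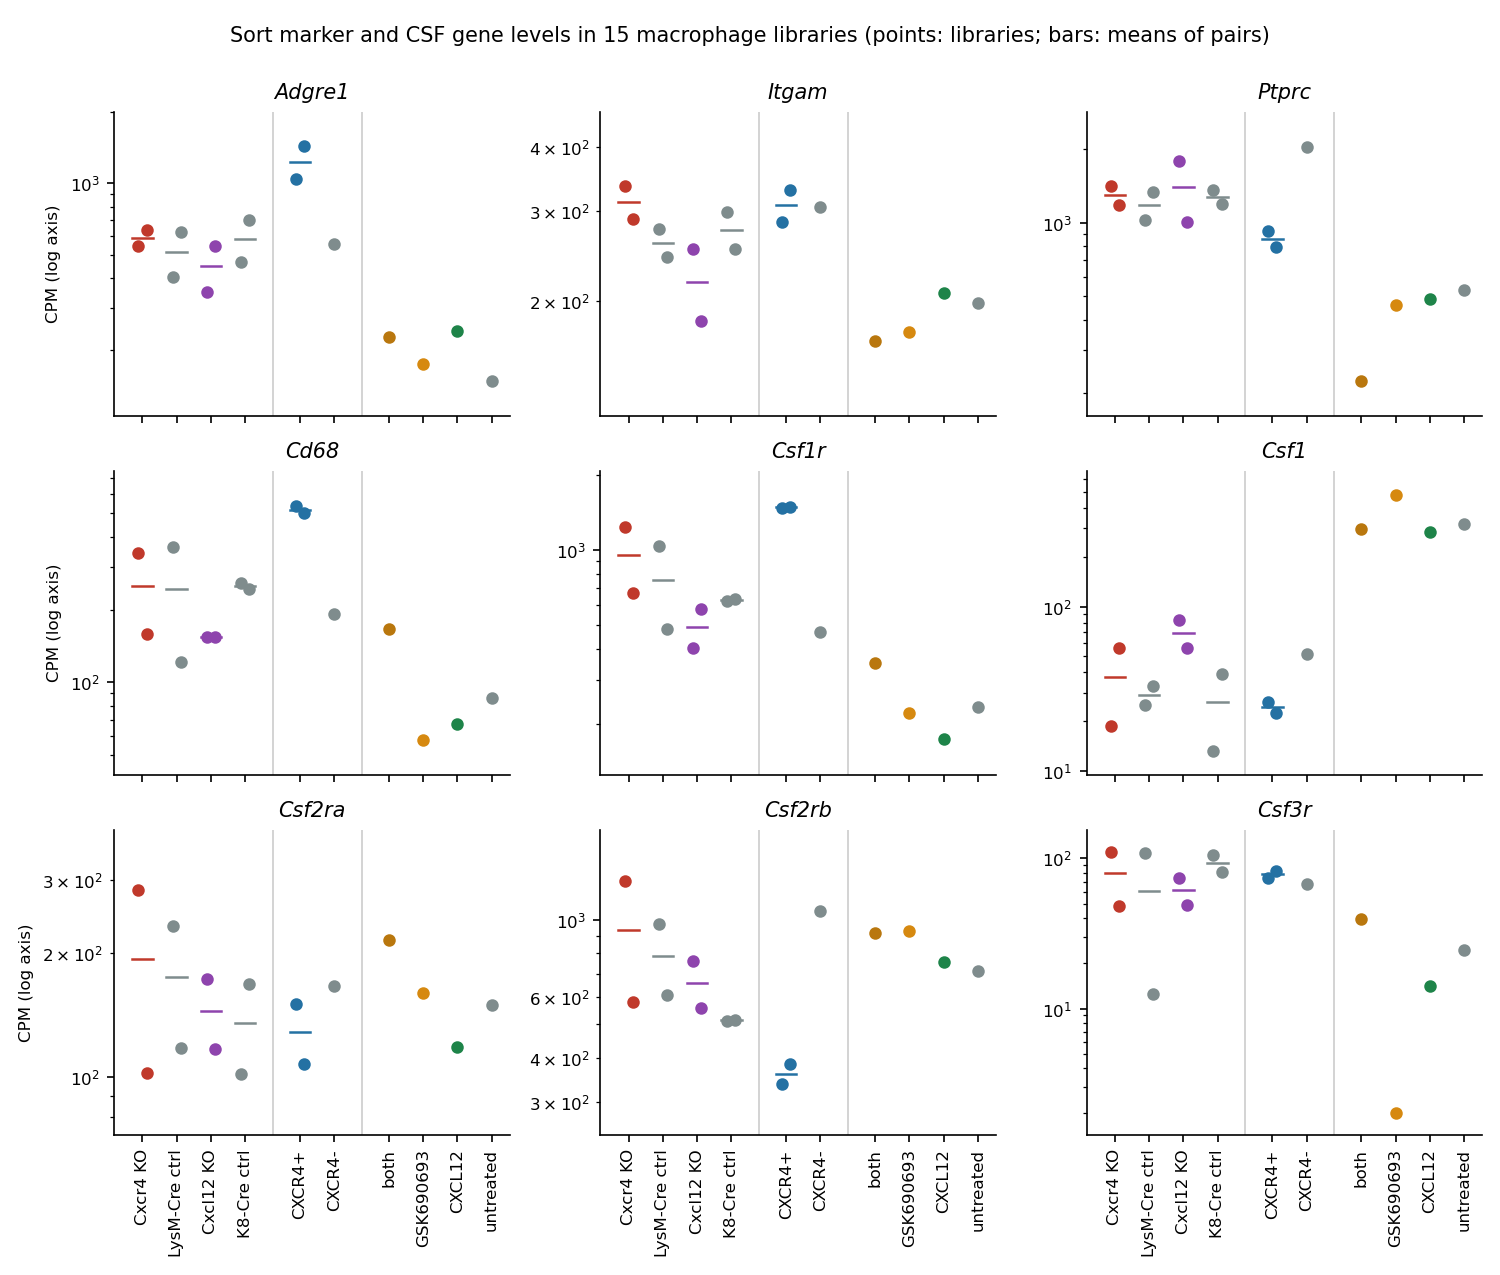
Level of each of the 9 genes in the 15 macrophage libraries, in CPM on a log axis, with knockout experiments on the left, the CXCR4 sort in the middle and cultured cells on the right of each panel. Points are libraries and bars the mean of a pair. Csf1 sits at 286 to 482 CPM in culture and at 82.9 CPM or less elsewhere, and Csf3r drops to 2.02 CPM with GSK690693 alone.

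Among all comparisons with a test, calls among the 9 genes came from the split by surface CXCR4 alone. In CXCR4+ macrophages, Csf1r, Cd68 and Adgre1 rose and Csf2rb and Ptprc fell relative to CXCR4- macrophages, so 5 of 9 passed (limma, adjusted p under 0.05), where 8.46% of the 14411 genes tested did. The 3 higher genes compare with 5.06% of all genes called higher, and the 2 lower with 3.40% called lower. Over the 9 genes, the median log2 change was 0.01, beside -0.20 over all genes tested, which quantile normalisation moved to -0.09 and median-ratio scaling to -0.06. The median of the 9 moved to -0.13 under quantile normalisation, then below that of all genes, and to 0.17 under median-ratio scaling. Of all genes called, 729 were higher and 490 lower, and 870 and 367 under median-ratio scaling, which left the same count of 3 higher and 2 lower among the 9.

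Csf1r had 1483 and 1491 CPM in CXCR4+ macrophages, against 467 CPM in CXCR4- macrophages. Both CXCR4+ libraries lay above every other macrophage library of the study. With limma, Csf1r differed by 1.67 on the log2 scale (SE 0.34, 95% interval 1.01 to 2.33, adjusted p = 3.61e-05). Cd68 followed with 535 and 501 CPM in CXCR4+ against 191 CPM in CXCR4- macrophages, a log2 change of 1.43 (SE 0.33, interval 0.78 to 2.08, adjusted p = 0.000450). Adgre1 had 1041 and 1429 CPM in CXCR4+ against 558 CPM in CXCR4- macrophages. Its CXCR4- level fell within the range of the unsplit knockout-experiment libraries, while both CXCR4+ values exceeded that range. The log2 change of Adgre1 was 1.13 (SE 0.34, interval 0.47 to 1.79, adjusted p = 0.0135).

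Csf2rb went the other way, with 338 and 384 CPM in CXCR4+ against 1060 CPM in CXCR4- macrophages. With limma, Csf2rb differed by -1.55 on the log2 scale (SE 0.33, interval -2.20 to -0.91, adjusted p = 9.45e-05). Csf2rb2, the mouse gene beside it that encodes a beta chain of the interleukin 3 receptor, had 177 and 148 CPM against 340 CPM, a log2 change of -1.07 (SE 0.34, adjusted p = 0.0262). The 2 transcripts are near copies: their longest alignment covered 3108 bases at 95.1% identity, and 92.8% of the 4900 bases of the Csf2rb transcript aligned to Csf2rb2. How reads were divided between them is not given in the sources used here, so each of the 2 values is uncertain. Ptprc had 920 and 798 CPM in CXCR4+ against 2040 CPM in CXCR4- macrophages, a log2 change of -1.25 (SE 0.34, interval -1.92 to -0.58, adjusted p = 0.00503). The CXCR4- value of Ptprc was the highest of all 15 macrophage libraries, and both CXCR4+ values were below all 8 libraries of the knockout experiments.

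Itgam, the other gated protein's gene, had 285 and 330 CPM in CXCR4+ and 305 CPM in CXCR4- macrophages. These values overlap, and the interval of the log2 change (0.01, SE 0.33) ran from -0.64 to 0.66. Csf3r had 74.6 and 82.4 CPM in CXCR4+ against 67.6 CPM in CXCR4- macrophages (log2 change 0.21, interval -0.58 to 1.00, adjusted p = 0.832 with limma). Csf2ra had 150 and 108 CPM against 166 CPM (log2 change -0.39, interval -1.09 to 0.32, adjusted p = 0.613), so the alpha chain did not pass while the beta chain did. Csf1 had 26.4 and 22.4 CPM in CXCR4+ against 51.4 CPM in CXCR4- macrophages, a log2 change of -1.05 (interval -2.07 to -0.03) with an adjusted p of 0.247. Its libraries did not overlap, which is common in this design: 4 of the 9 genes lay higher and 4 lower without overlap, against 32.1% and 44.6% of all genes tested (76.7% in either direction).

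**Figure D2:**
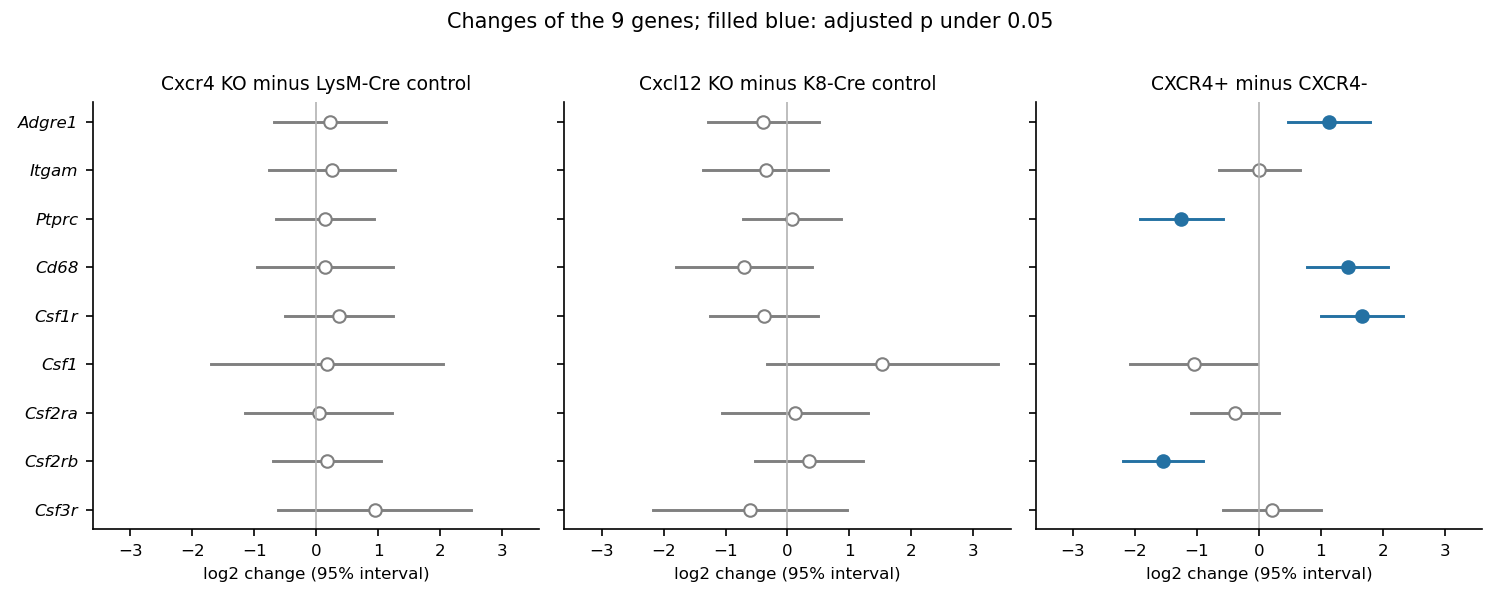
Log2 change of each gene with its 95% interval, for the Cxcr4 knockout minus its LysM-Cre control, the Cxcl12 knockout minus its K8-Cre control, and CXCR4+ minus CXCR4- macrophages. Filled blue points passed at an adjusted p under 0.05, which holds for 5 genes in the CXCR4 sort and for 0 in either knockout.

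Within a library, the balance of Csf1r to Csf2rb needs no scaling between libraries. Per kilobase, Csf1r stood at 4.58 and 4.04 times Csf2rb in the CXCR4+ libraries, against 0.459 times in the CXCR4- library. The 8 knockout-experiment libraries lay between, at 0.550 to 1.29 times. Cultured macrophages had 0.239 to 0.400 times and P4 cells, from FPKM as deposited, 0.0607 and 0.0637 times. Csf2rb thus exceeded Csf1r in each of those libraries. The uncertain division of reads between Csf2rb and its near copy Csf2rb2 bears on all these ratios. Per kilobase, Csf2rb stood at 1.24 to 3.74 times Csf2rb2 in macrophage libraries and at 0.826 and 0.829 times in P4 cells. The ratio of Csf2rb to Csf2ra, the 2 chains of the GM-CSF receptor, was 0.850 and 1.35 per kilobase in CXCR4+ against 2.41 in CXCR4- macrophages. It was 1.15 to 2.15 in the knockout experiments and 1.61 to 2.41 in culture.

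**Figure D3:**
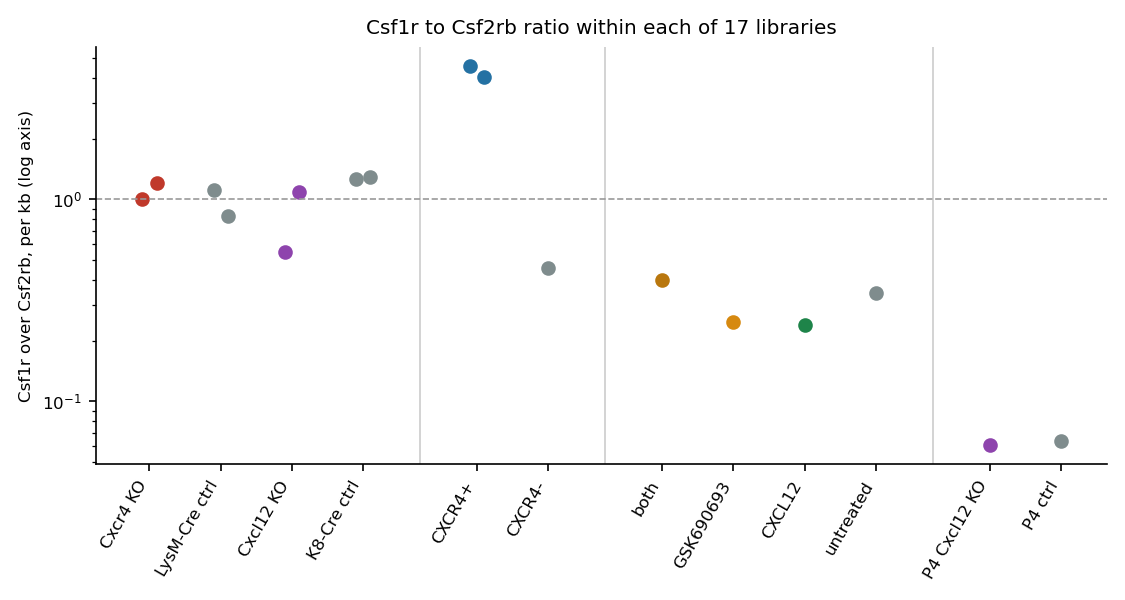
Csf1r level divided by Csf2rb level, both per kilobase, in each of the 17 libraries on a log axis. For P4 cells the levels are FPKM, and the Csf2rb level is uncertain given its near copy Csf2rb2. Both CXCR4+ libraries stand above 4 and the CXCR4- library at 0.459, while the knockout-experiment libraries spread around the dashed line at 1.

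Genes of the same pathways moved in both directions across the CXCR4 gate. Of 17 adaptors, kinases and feedback regulators downstream of these receptors, all tested, 3 rose and 2 fell. Socs3, a feedback inhibitor of cytokine receptors, had 241 and 159 CPM in CXCR4+ against 47.0 CPM in CXCR4- macrophages (log2 change 2.04, SE 0.37, adjusted p = 1.51e-06 with limma). The adaptor Gab2 also rose (1.05, SE 0.37, adjusted p = 0.0485), while the phosphatase gene Ptpn6 (-1.62, SE 0.42, adjusted p = 0.00288) and the kinase gene Jak2 (-1.12, SE 0.34, adjusted p = 0.0174) fell. The median of the 17 was -0.14, beside -0.20 over all genes. Of the 3 other receptor chains, Csf2rb2 fell as described and Il3ra was tested without passing.

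Relatives of the sort markers gave 2 higher and 4 lower genes among the 12 tested of 15. The lysosomal membrane genes Cd63 (log2 change 2.07, SE 0.49, adjusted p = 0.000618) and Lamp1 (1.36, SE 0.33, adjusted p = 0.000973, both with limma) rose, as did Cd68 of the same organelle. The other lysosomal membrane genes on the list, Lamp2 and Lamp3, were not called. Adgre4, a close relative of Adgre1, fell with 69.0 and 80.7 CPM in CXCR4+ against 356 CPM in CXCR4- macrophages (-2.24, SE 0.36, adjusted p = 6.38e-08). Among the integrin alpha chains that, like Itgam, pair with Itgb2, Itgal (-2.23, SE 0.37, adjusted p = 1.31e-07) and Itgax (-1.15, SE 0.33, adjusted p = 0.00839) fell, as did Cd24a (-1.86, SE 0.37, adjusted p = 2.17e-05). Itgb2 itself had 156 and 199 CPM in CXCR4+ against 212 CPM in CXCR4- macrophages (-0.27, adjusted p = 0.733). The median of the 12 was -0.73, beside -0.20 over all genes.

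Markers of several cell types moved with this split, and their part in these results was not tested. The 8 macrophage markers summed to 10312 and 12050 CPM in CXCR4+ against 5824 CPM in CXCR4- macrophages, with 6 of 8 called higher and 0 lower. Lyz2 alone made up most of each sum, at 5985 and 7367 CPM against 5511 CPM. The 6 monocyte markers summed to 623 and 665 CPM against 1078 CPM, with 3 called lower, and the 6 dendritic cell markers to 254 and 177 CPM against 523 CPM, with 2 called higher and 3 lower. The 4 eosinophil markers listed summed to 5.63 and 3.93 CPM in CXCR4+ against 131 CPM in CXCR4- macrophages, with at least 1 of the 4 at 0 in each CXCR4+ library. The 3 mast cell markers listed summed to 44.8 and 43.8 CPM against 0.550 CPM, all 3 called higher. B cell markers reached 28.9 and 20.3 CPM against 82.9 CPM, with 1 of 5 tested called lower. The 5 fibroblast markers summed to 132 and 278 CPM in CXCR4+ against 64.4 CPM in CXCR4- macrophages, with 2 called higher and all 5 above 0.

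The CXCR4 test rests on 1 CXCR4- library, which was assumed to vary like the CXCR4+ pair, and all of its error estimate was borrowed from other genes at similar levels. Without that trend, and without the filter on low values, no gene of the table passed at all, and the 5 calls ended with it (adjusted p of 0.321 to 0.431 and of 0.258 to 0.326).

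Loss of Cxcr4 in myeloid cells gave no call among the 9 genes, where 0.00579% of the 17275 genes tested were called (1 gene, Lyz2). All 9 fitted log2 changes were above 0, from 0.04 for Csf2ra to 0.95 for Csf3r, with a median of 0.18 beside 0.14 over all genes. No gene of the 9 reached an unadjusted p under 0.05 with limma, and only 575 of the 17275 genes tested did.

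Itgam was the 1 gene whose libraries did not overlap, against 25.4% of all genes (16.7% higher and 8.75% lower). It had 335 and 288 CPM in the Cxcr4 knockout, against 276 and 243 CPM in the LysM-Cre control (log2 change 0.26, SE 0.51, 95% interval -0.75 to 1.27). Csf1r had 1241 and 672 CPM in the Cxcr4 knockout, against 1039 and 480 CPM in the control. Each genotype held 1 high and 1 low library, the high one being repeat 1 in both genotypes. The spread within each group exceeded the difference between them (log2 change 0.37, interval -0.51 to 1.25). Csf2rb showed the same layout with 1294 and 580 CPM in the knockout against 970 and 607 CPM in the control (0.17, interval -0.70 to 1.04).

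Csf3r had 111 and 48.4 CPM in the Cxcr4 knockout, against 109 and 12.5 CPM in the LysM-Cre control. The groups overlap, with 1 knockout library between the control libraries and the other slightly above both. Its log2 change of 0.95 (SE 0.79, interval -0.61 to 2.51, adjusted p = 1 with limma) turned to -0.57 without LysM-Cre control 2 and was 2.46 without LysM-Cre control 1. The 8 neutrophil markers summed to 163 and 27.7 CPM in the knockout, against 286 and 11.6 CPM in the control, so the lowest Csf3r stood in the library with the lowest sum. The part of these markers in the Csf3r value was not tested.

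The other genes overlapped between Cxcr4 knockout and control. Adgre1 had 546 and 640 CPM in the knockout, against 408 and 627 CPM in the control, and Ptprc 1412 and 1181 CPM against 1027 and 1338 CPM. Cd68 had 343 and 158 CPM in the knockout, against 362 and 122 CPM in the control, Csf2ra 284 and 102 CPM against 232 and 118 CPM, and Csf1 18.8 and 56.1 CPM against 25.3 and 32.7 CPM. The 95% intervals of these log2 changes reached at least 0.93 upward and -0.65 downward, so changes of those sizes were not excluded. LysM-Cre control 1 held 48.1 CPM of the pseudogene Csf1r-ps, listed at 0.0668 CPM or less in the other 7 libraries. How reads were divided between Csf1r and this copy was not tested.

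Luminal Cxcl12 loss also gave no call among the 9 genes in sorted macrophages, with a background of 0% of the 17275 genes tested (491 genes had an unadjusted p under 0.05). The median log2 change of the 9 was -0.35, beside 0.36 over all genes, and 4 of 9 were above 0. Quantile normalisation brought the median of all genes to 0.02 here and to 0.01 in the Cxcr4 knockout, with 4 and 8 of the 9 genes above 0. Libraries did not overlap for 5 of the 9, namely Csf1 and Csf2rb above and Cd68, Csf1r and Csf3r below their control, against 28.4% of all genes (20.4% higher and 8.02% lower).

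Csf1 had 82.9 and 55.7 CPM in the Cxcl12 knockout, against 13.1 and 39.2 CPM in the K8-Cre control. Its log2 change of 1.53 (SE 0.94, interval -0.33 to 3.40, adjusted p = 1 with limma) became 0.78 without K8-Cre control 1 and 2.29 without K8-Cre control 2. K8-Cre control 1, the shallowest library, held the lowest value. The 4 endothelial markers summed to 96.4 and 160 CPM in the knockout against 0.703 and 161 CPM in the control, with 2 of 4 at 0 in K8-Cre control 1. Their part in the Csf1 value was not tested.

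Cd68 had 154 CPM in each Cxcl12 knockout library, against 257 and 244 CPM in the K8-Cre control. Both knockout libraries lay below both control libraries, with a log2 change of -0.70 (SE 0.55, interval -1.79 to 0.40). Csf1r had 401 and 581 CPM in the knockout against 621 and 638 CPM in the control (-0.38, interval -1.26 to 0.50), and Csf3r 73.6 and 49.3 CPM against 106 and 80.7 CPM (-0.61, interval -2.17 to 0.95). Cd68 and Csf3r in the Cxcl12 knockout lay within the range of the LysM-Cre libraries, whereas the 401 CPM of Csf1r was the lowest of all 8. The 8 macrophage markers summed to 5884 and 8025 CPM in the Cxcl12 knockout, against 9220 and 9116 CPM in the K8-Cre control, with none called, 2 of 8 above 0 and a median log2 change of -0.39. Lyz2 alone made up most of each sum, at 5099 and 6679 CPM in the knockout against 7922 and 7433 CPM in the control. The part of these markers in the Cd68 and Csf1r values was not tested. Csf2rb had 761 and 559 CPM in the knockout against 513 and 514 CPM in the control (0.34, interval -0.53 to 1.21).

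Adgre1, Itgam, Ptprc and Csf2ra overlapped between the Cxcl12 knockout and its control. Adgre1 had 350 and 549 CPM in the knockout against 470 and 702 CPM in the control, and Itgam 253 and 182 CPM against 298 and 252 CPM. Ptprc had 1785 and 1009 CPM in the knockout against 1364 and 1192 CPM in the control, and Csf2ra 173 and 117 CPM against 101 and 168 CPM.

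The difference between the 2 knockout changes passed for none of the 9 genes with limma, where 0.00579% of all genes were called. An unadjusted p under 0.05 was reached by 428 of the 17275 genes tested, none of the 9 among them. This difference was largest for Csf3r, at 1.55 (SE 1.11), and Csf1, at -1.36 (SE 1.33). Cd68 followed at 0.85 (SE 0.78) and Csf1r at 0.75 (SE 0.63). The other genes of the CSF pathway gave no call in either knockout: 0 of 3 ligands tested, 0 of 3 receptor chains and 0 of 17 signalling genes, and of the relatives of the sort markers 0 of 14.

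The ligands themselves were rare in fresh macrophages. Il34 reached 4.99 CPM in Cxcr4 knockout 1 and was at most 1.03 CPM in the other 7 knockout-experiment libraries. Csf2 was listed at 0 in 5 of these 8 libraries and reached 3.47 CPM, in Cxcr4 knockout 2. Csf3 reached 7.25 CPM, in Cxcl12 knockout 1. A count of 3 reads corresponds to 0.0806 to 0.349 CPM in this table, so levels this low rest on few reads.

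By the profile over the 8 knockout-experiment libraries, the genes most like each of the 9 were ranked among 8983 genes of at least 10 CPM on average. Csf2rb was most like Ifih1 (Pearson r of log2(CPM + 1) 0.992), Csf1r most like Gdf15 (0.988), Csf3r most like Cd244a (0.976) and Cd68 most like Socs3 (0.976). Adgre1 was most like Atp6v1g1 (0.967), Csf1 most like Gm40155 (0.966), Csf2ra most like Ufd1 (0.965), Ptprc most like Zeb2 (0.959) and Itgam most like Oas3 (0.935). These values describe 8 libraries that share depth and genotype differences, and they carry no test.

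Cultured macrophages differed in order from fresh ones. Csf2rb led per kilobase, though its level is uncertain given its near copy Csf2rb2. The median of Csf2rb was 170 CPM per kb, above Ptprc (100) in 4 of 4 libraries without overlap. Csf2ra (83.5), Csf1 (74.3), Cd68 (62.5), Adgre1 (62.1) and Csf1r (48.2) followed with ranges that overlapped their neighbours, then Itgam (39.9) and Csf3r (5.57). Csf1 stood at 300 CPM with both agents, 482 CPM with GSK690693, 286 CPM with CXCL12 and 320 CPM untreated. Every cultured library lay above the 13.1 to 82.9 CPM of the knockout experiments and the 22.4 to 51.4 CPM of the CXCR4 sort, with no test across tables. The 4 endothelial markers summed to 1396 to 1849 CPM in culture with none at 0, against 0.703 to 161 CPM in the knockout experiments and 81.5 to 123 CPM in the CXCR4 sort; their part in the Csf1 level was not tested.

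The 4 cultured libraries form a square of 2 agents, so each comparison below shares a library with others, and with 1 library per condition none has a test. A gene was counted when it differed by over 2-fold with at least 10 CPM in the higher library. The library with both agents had 31.0% of listed genes at 0, against 19.7% with GSK690693, 12.4% with CXCL12 and 16.3% untreated. What this share contributed to the comparisons with that library was not tested. GSK690693 alone against untreated gave 0 of the 9 higher and 1 lower, where 35.0% of all genes passed that fold (19.2% higher, 15.8% lower). GSK690693 with CXCL12 against CXCL12 gave 3 higher and 1 lower, where 46.6% of all genes passed (22.8% higher, 23.7% lower). CXCL12 alone against untreated gave none, where 24.8% did (11.2% higher, 13.5% lower), and CXCL12 with GSK690693 against GSK690693 gave 2 higher and 1 lower, where 47.9% did (20.8% higher, 27.1% lower). Both agents against untreated gave 0 higher and 1 lower, where 47.0% did (22.1% higher, 24.9% lower). The 5 comparisons reuse the same 4 libraries, and the background includes genes down to 10 CPM. The counts among the 9 genes are therefore given as description only.

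Csf3r varied most. It had 39.5 CPM with both agents, 2.02 CPM with GSK690693, 14.2 CPM with CXCL12 and 24.6 CPM untreated. GSK690693 thus stood lower than untreated (log2 ratio -3.08, with 1 CPM added to each level), while GSK690693 with CXCL12 stood higher than CXCL12 alone (1.42). Cd68 had 166 CPM with both agents, 57.7 CPM with GSK690693, 67.5 CPM with CXCL12 and 86.3 CPM untreated. The library with both agents was the highest, at a log2 ratio of 1.50 over GSK690693 alone and 1.28 over CXCL12 alone. Csf1r had 351 CPM with both agents, 219 CPM with GSK690693, 173 CPM with CXCL12 and 234 CPM untreated, and the largest of its log2 ratios was 1.02, both agents over CXCL12 alone.

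Ptprc had 225 CPM with both agents, 459 CPM with GSK690693, 485 CPM with CXCL12 and 529 CPM untreated. The library with both agents was the lowest, at log2 ratios of -1.02 against GSK690693, -1.10 against CXCL12 and -1.23 against untreated. Cd68 and Ptprc thus differed in opposite directions in the library that held both agents, which was also the cultured library with the most listed genes at 0. Adgre1 had 228 CPM with both agents, 175 CPM with GSK690693, 240 CPM with CXCL12 and 149 CPM untreated, and Itgam 167, 174, 207 and 198 CPM in the same order of conditions. Csf2rb had 915 CPM with both agents, 930 CPM with GSK690693, 755 CPM with CXCL12 and 711 CPM untreated, and Csf2ra 215, 160, 118 and 149 CPM. None of these 4 genes passed 2-fold in any of the 5 comparisons.

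**Figure D4:**
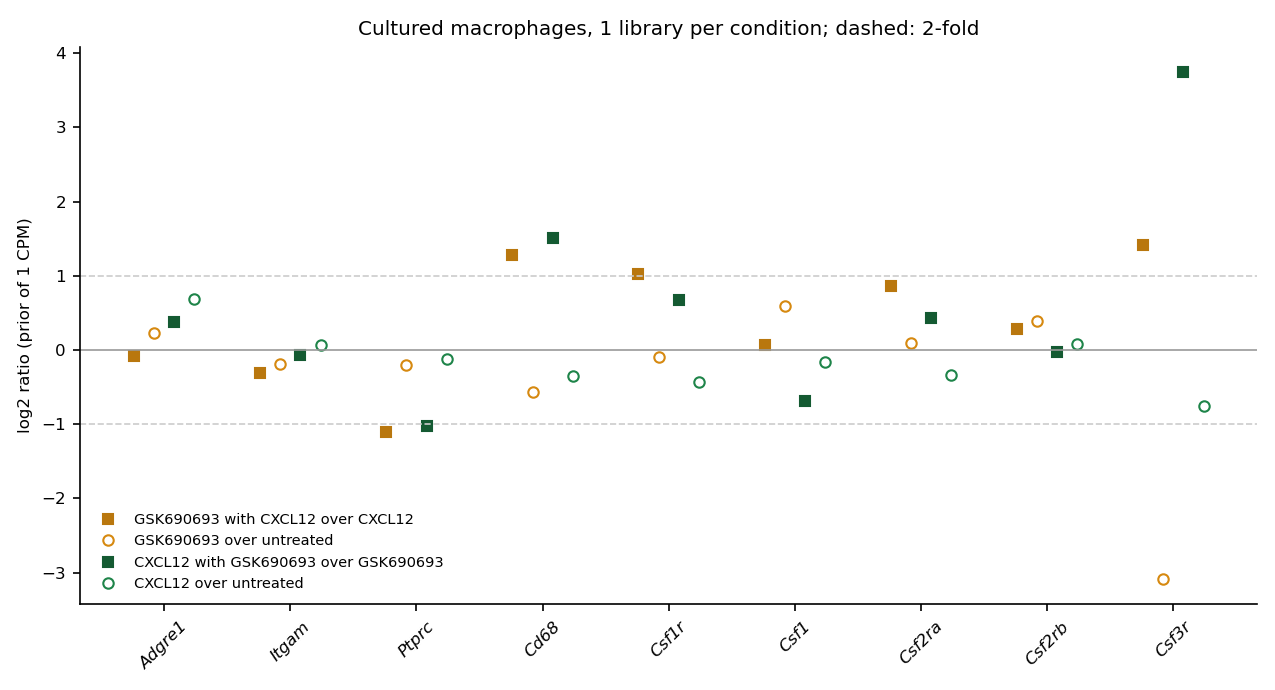
Log2 ratio of each of the 9 genes for the 4 single-agent comparisons in cultured macrophages, with 1 CPM added to each level and dashed lines at 2-fold. Each condition is 1 library, and comparisons share libraries. Csf3r spans -3.08 to 3.74, while Adgre1, Itgam, Csf1, Csf2ra and Csf2rb stay within 2-fold.

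Of the other ligands of these receptors, Csf2, Csf3 and Il34 were listed in culture, again with 1 library per condition. CXCL12 against untreated took only Csf2 of these 3 past 2-fold, and GSK690693 against untreated took Csf2 and Csf3. Csf3, which encodes G-CSF, had 11.2 CPM with both agents, 28.7 CPM with GSK690693, 72.3 CPM with CXCL12 and 106.9 CPM untreated. Csf2 had 0.0624 CPM with both agents, 2.51 CPM with GSK690693, 7.37 CPM with CXCL12 and 20.4 CPM untreated. Il34 was listed at 0 with both agents, where 3 reads correspond to 0.187 CPM, and had 11.2 CPM with GSK690693, 10.7 CPM with CXCL12 and 22.2 CPM untreated. The level of each of the 3 was lowest with both agents and highest untreated, and how many of all genes share that order was not counted. More listed genes stood at 0 with both agents than in any other cultured library.

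In P4 basal cells the order of the 9 genes differed from that in macrophages, with the ligand Csf1 on top, while Itgam and Csf3r were the lowest. Csf1 had 124 FPKM (reads scaled by transcript length and depth, as the authors give them) in the Cxcl12 knockout and 141 FPKM in the K8-Cre control. Csf2rb followed with 17.8 FPKM in the knockout and 8.71 FPKM in the control, and its near copy Csf2rb2 with 21.5 and 10.5 FPKM. Only Csf1 and Csf2rb of the 9 genes reached 10 FPKM in the higher library, the level required for a count. Neither passed 2-fold in log2 ratio with 1 FPKM added, where 13.3% of all genes at that level did (7.99% higher, 5.33% lower). Of these 2, Csf2rb came nearer, at a log2 ratio of 0.96, and Csf2rb2 had the same ratio of 0.96. Below that level, Ptprc differed by over 2-fold, at 4.26 FPKM in the knockout and 0.604 FPKM in the control. With 1 library per genotype there is no test.

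The other genes of the 9 had at most 4.26 FPKM in P4 cells. Ptprc had 4.26 FPKM in the Cxcl12 knockout and 0.604 FPKM in the control, Csf2ra 3.43 and 2.55 FPKM, and Cd68 2.45 and 3.06 FPKM. Csf1r had 1.08 FPKM in the knockout and 0.555 FPKM in the control, Adgre1 0.594 and 0.409 FPKM, Itgam 0.173 and 0.306 FPKM, and Csf3r 0.112 and 0.0360 FPKM. Macrophage markers summed to 30.4 FPKM in the knockout and 17.7 FPKM in the control, beside 6324 and 4583 FPKM for the 6 basal cell markers, none of which was at 0. Lyz2 alone had 21.8 and 12.4 FPKM of the macrophage sums, and 6 of the 8 macrophage markers were under 1 FPKM in each library. The 5 monocyte markers listed summed to 28.1 FPKM in the knockout and 52.4 FPKM in the control, with 1 of them lower by over 2-fold, and the 6 dendritic cell markers to 5.42 and 5.57 FPKM. Neutrophil, B cell, T and NK cell, eosinophil and mast cell markers each summed to at most 2.00 FPKM in either library.

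**Figure D5:**
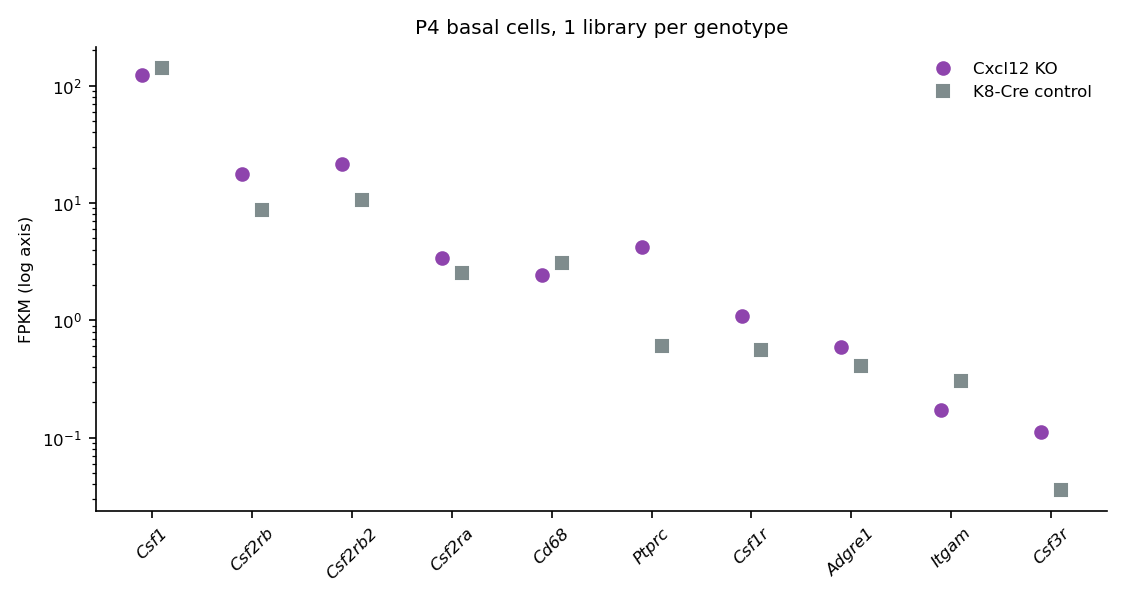
FPKM of the 9 genes and Csf2rb2 in P4 basal cells on a log axis, with the Cxcl12 knockout as purple circles and the K8-Cre control as grey squares, 1 library each. Csf1 stands at 124 and 141 FPKM, and Csf3r at 0.112 and 0.0360 FPKM.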

How the data were processed

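RNA-seq values of 17 mouse mammary libraries in 4 tables were used as deposited. The 3 macrophage tables hold log2 values that the authors made as log2(CPM + 0.0001), read from the values: raised back, each library summed to its total on the per-million scale, and they were used as CPM. The P4 table holds FPKM as deposited by the authors, in the layout of a tracking file. The submitters' processing notes name STAR 2.7.8a, Partek and the build hg38, although the symbols are mouse, and counting settings are not given in the sources used here. Between 74.3% and 90.1% of low values (up to 50 reads) came out as whole reads within 0.05 of a read, too few to run a count test.

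Groups came from the labels. limma 3.58.1 (R 4.3.3) was run on log2(CPM + 1) of genes with at least 1 CPM in at least 2 libraries, with a trend and Benjamini-Hochberg adjustment over all genes, at a threshold of 0.05. It was tested on simulated data. A fold change on this scale understates that of low genes. The 4 knockout-experiment groups shared 1 estimate of the spread. Culture and P4 comparisons have 1 library per condition and no test. Levels per kilobase use the principal transcript of the GENCODE annotation, and near copies were compared with blastn 2.17.0. Where rows shared a symbol, the row with the highest mean level was kept and the others were dropped, 91 for cultured cells and 27 for P4 cells. Alternatives were other pseudocounts, filters, scalings, no trend, a replicate block and leaving out libraries.

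Named genes were the 9 genes, their ligands, receptor chains, signalling genes and relatives of the sort markers, and the 2 genes most alike in profile to each. These genes and lists, and the cell type markers, were chosen with earlier results of these data known. The values of 1 listed signalling gene are not reported here.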

Additional observations from a re-analysis of the deposited data

Results flagged for a closer look

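Csf3r moved in opposite directions with GSK690693 in cultured macrophages, depending on whether CXCL12 was present. Its log2 ratio was 1.42 for GSK690693 with CXCL12 against CXCL12 alone, and -3.08 for GSK690693 against untreated. The 4 levels were 39.5 CPM with both agents, 2.02 CPM with GSK690693, 14.2 CPM with CXCL12 and 24.6 CPM untreated. The difference between the ratios was not tested, since each condition is 1 library. With both agents, 31.0% of listed genes stood at 0, the largest share among the cultured libraries. The 2 neutrophil markers listed in that table summed to 0 CPM with both agents, 0.838 CPM with GSK690693, 1.72 CPM with CXCL12 and 7.99 CPM untreated, and their part was not tested.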

How the results depend on the processing

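Depth limits genes near 0 most, since 3 reads ranged from 0.0806 to 0.349 CPM in the knockout experiments. None of the 9 genes was called in either knockout, or in the difference between them, under any alternative run. Among all genes, calls in the Cxcr4 knockout numbered 8 without the filter on low values and 0 without the trend, against 1, and in the difference between knockouts 2 and 0, against 1. Leaving out 1 library in turn gave 1 to 150 calls in the Cxcr4 knockout (150 without LysM-Cre control 2, 19 without Cxcr4 knockout 2, 17 without LysM-Cre control 1), 0 to 151 in the Cxcl12 knockout (151 without K8-Cre control 2, 7 without Cxcl12 knockout 2) and 1 to 30 in the difference (30 without LysM-Cre control 2). The cause was not tested.

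In the CXCR4 sort, no filter gave 0 of the 9 genes and 0 of all genes called, and no trend likewise 0 and 0, against 5 and 1219 (limma, with an unadjusted p under 0.05 for 2684 and 2049 genes). The lower pseudocount and both scalings kept the 5 calls. With 1 CXCR4+ library left out there is no test, and the values of Itgam ran from -0.10 to 0.11, those of Csf1r from 1.67 to 1.67 and those of Csf2rb from -1.65 to -1.46. In P4 cells, 1 of the 9 genes was counted past 2-fold with a prior of 0.1 FPKM (Csf2rb). With a minimum of 1 FPKM in place of 10 FPKM, 1 was counted (Ptprc), against 0 in the main setting.

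Signs turned for Csf2ra in the Cxcr4 knockout (-0.016 under quantile normalisation, -0.0070 under median-ratio scaling), Ptprc in the difference (-0.17, quantile) and Itgam in the CXCR4 sort (-0.13, quantile). Without 1 library, Cxcr4 knockout changes ran from -0.084 to 0.54 for Adgre1, -0.63 to 0.93 for Cd68, -0.59 to 0.94 for Csf1, -0.19 to 0.93 for Csf1r, -0.69 to 0.77 for Csf2ra, -0.40 to 0.75 for Csf2rb, -0.57 to 2.46 for Csf3r and -0.051 to 0.33 for Ptprc. Cxcl12 knockout changes ran from -0.24 to 0.48 for Csf2ra and -0.34 to 0.48 for Ptprc. The difference ran from -0.81 to 0.66 for Csf2ra, -0.75 to 0.41 for Csf2rb and -0.35 to 0.48 for Ptprc.

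Same-numbered libraries were not treated as pairs in the main fit. Their deviations from the group mean correlated weakly but always above 0, at 0.057 to 0.139. The highest value was that between the LysM-Cre control and the Cxcr4 knockout. A replicate block gave 1 call among all genes in the Cxcl12 knockout, against 0, and 1 in the Cxcr4 knockout and in the difference, against 1 each.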
